A study of Rattus norvegicus with 20 samples.

Results

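A set of 10 genes for odorant carriers and secreted proteins of nasal glands was followed array by array in rat nasal epithelium: Obp1f, Mup5, Lpal2, Csn3, Glal, Pip, Inhca, Dnase1, Azgp1 and Smr3a. They were selected on a measured value, as the secretory genes with the largest fall of array signal in olfactory against respiratory epithelium. They were found as the probe sets (groups of short probes that together report 1 transcript) whose only annotated symbol is among these names. This gave 13 probe sets of 31042 tested, for 10 genes of 14217 named ones. Mup5 had 3 probe sets, Inhca 2 and each other gene 1. Where no probe set is named, values are from the gene's brightest one. The choice was not strictly by size, since the non-member genes Obp3, Muc5ac and Slpi differed more between the tissues of males than Azgp1 and Smr3a did.

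The arrays came from untreated adult Sprague-Dawley rats, an outbred stock, aged 11, 13 or 14 weeks. There were 2 female olfactory, 6 male olfactory, 6 female respiratory and 6 male respiratory arrays, each with the RNA of 1 tissue of 1 rat, and all groups share strain and lack of treatment. The labels distinguish 7 male and 6 female animals (13 in all), and 5 of the males and 2 of the females gave both tissues. The series text, in contrast, names 9 per sex. The epithelium was collected by hand from septum and turbinates, so each sample mixes surface cells with whatever glands were taken along. Arrays are named by tissue, sex and rat number (male olfactory 3).

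Nasal glands lie under the epithelium and release their proteins into the mucus that covers it. Lipocalins, a family of small cup-shaped carrier proteins, bind odorants and pheromones, and the odorant-binding proteins and major urinary proteins of rodents belong to it. The lateral nasal glands are a known source of such carriers, while the olfactory region has its own Bowman's glands. Other products of these glands are shared with saliva, tears and milk.

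The tissue labels were checked with a defining marker. Omp, the marker of mature olfactory neurons, read 21367 to 26936 signal units in the 8 olfactory arrays, against 815.3 to 9625 in the 12 respiratory arrays. All respiratory values lay above background, highest in female respiratory 7, female respiratory 3 and male respiratory 1. The RNA integrity number (higher for less degraded RNA) was 8.2 to 8.8 in 7 olfactory samples, against 8.7 to 9.3 in 10 respiratory samples, and did not overlap between tissues within either sex. Female respiratory 8 and male respiratory 7 stand apart in their overall signal distribution, and some of the results are given with and without them. The background limit of an array, taken from bacterial control probe sets, was 28.2 to 64.9 signal units.

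Promoter sequence was looked at where members lie near each other. Csn3 and Smr3a are neighbours on chromosome 14 with 2 protein-coding genes between them, while Lpal2 and Glal lie on chromosome 4 with 16 between them, and Pip lies far away on the same chromosome. The stretches below end at the last base before the annotated gene and are from RefSeq on build GRCr8, chr14:20439831-20439930 on the minus strand for Csn3, chr14:20338821-20338920 on the minus strand for Smr3a, chr4:71754165-71754264 on the plus strand for Pip, chr4:167662751-167662850 on the minus strand for Glal and chr4:166938642-166938776 on the plus strand for Lpal2. Capitals mark TATAA on the strand of the gene (the core of a TATA box) and, in Lpal2, CTGCGCATGCGCAG (its longest stretch that reads the same on both strands).
Csn3: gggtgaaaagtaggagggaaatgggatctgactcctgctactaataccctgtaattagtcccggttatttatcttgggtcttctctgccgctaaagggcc
Smr3a: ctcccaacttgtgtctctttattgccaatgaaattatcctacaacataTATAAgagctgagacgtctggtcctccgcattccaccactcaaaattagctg
Pip: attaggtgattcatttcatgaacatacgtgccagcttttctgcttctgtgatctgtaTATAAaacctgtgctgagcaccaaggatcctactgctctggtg
Glal: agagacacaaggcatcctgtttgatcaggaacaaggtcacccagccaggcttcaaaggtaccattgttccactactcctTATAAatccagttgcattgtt
Lpal2: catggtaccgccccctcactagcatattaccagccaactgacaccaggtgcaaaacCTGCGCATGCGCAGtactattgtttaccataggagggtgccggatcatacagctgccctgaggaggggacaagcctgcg

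All 10 genes had an entry in the promoter table. TATAA lay in the 250 bases before the gene start of 5 of the 10 (Glal, Mup5, Obp1f, Pip and Smr3a), against 16.7% of 33469 promoters of the same length. Within the last 60 bases it lay in 4 of the 10 (Glal, Mup5, Pip and Smr3a), against 4.99% of all promoters. CTGCGCATGCGCAG was found in Lpal2 alone among the 10, against 0.0269% of all promoters. TGTTCT, the core of the site bound by androgen and glucocorticoid receptors, searched on both strands, was in 4 of the 10 (Csn3, Dnase1, Glal and Pip), against 17.5% of all promoters. The motifs were picked after the sequences were seen, a match is not a bound site, and no count was tested. Glal and Lpal2, whose signals moved together over the respiratory arrays, share neither of the marked motifs in the printed stretches.

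The carriers are given before the other secretions. Obp1f, an odorant-binding lipocalin, read 27469.7 and 13553.5 signal units in female olfactory 6 and 8, and 772.5, 825, 13653, 11428, 355.8 and 1536 in male olfactory 1, 2, 3, 4, 7 and 10. In respiratory arrays it read 27959 to 56095 (median 29058.5) in females and 27607 to 41830.1 (median 30447.9) in males. Female olfactory 6 and 8 and male olfactory 3 and 4 were high, the other 4 male olfactory arrays low. The tissues did not overlap in either sex, although female olfactory 6 came close to the lowest female respiratory array. The log2 difference, olfactory minus respiratory, was -0.75 (SE 0.88) in females and -4.02 (SE 0.62) in males, and the female value was -1.26 without female olfactory 6 and -0.24 without female olfactory 8.

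The respiratory signal of Obp1f lay near the top of what an array reports. It reached 73.8% to 84.8% of the brightest probe set's signal on each female respiratory array and 75.5% to 83.3% on each male one, with 6 to 21 probe sets brighter on the female and 9 to 16 on the male arrays. Its signal outside female respiratory 8 and male respiratory 7 spanned only 27607 to 32854. Female respiratory 8 had a highest signal of 76035 and male respiratory 7 of 55439, against 33602 to 39456 in the other 10 respiratory arrays. With respiratory values so near the top, the tissue differences of Obp1f may be understated.

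Mup5, a lipocalin of the major urinary protein family, read 828.1 and 341.8 signal units in female olfactory 6 and 8 through its brightest probe set, 1370779_x_at. In male olfactory 1, 2, 3, 4, 7 and 10 it read 13.1, 5.6, 135.7, 405.1, 23.9 and 20.3, and 4 of these 6 values were at or under background. Respiratory values were 3752 to 29991 (median 13805.0) in females and 4925 to 15910.0 (median 11682) in males, so the tissues did not overlap in either sex. The difference was -4.55 (SE 0.83) in females and -7.34 (SE 0.59) in males. Probe set 1370778_at gave -5.09 and -7.90, and the dimmer 1388031_x_at, at or under background on 5 of 6 male olfactory arrays, gave -3.96 and -5.35. The x_at probe sets may also read other genes of this family, whose sequences are much alike.

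The 3 Mup5 probe sets did not always rank the respiratory arrays alike. Over the 12 arrays 1370778_at and 1370779_x_at correlated with r = 0.989, while 1370779_x_at and 1388031_x_at correlated with r = 0.733. Between 1370779_x_at and 1388031_x_at, r was 0.994 within females and 0.234 within males, and leaving out 1 array brought the value over all arrays to as much as 0.98. That array is male respiratory 1, where 1388031_x_at read 3166 against 414.5 to 1463 in the other 5 males.

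Lpal2, to which no role is given here, read 280.6 and 6724 signal units in female olfactory 6 and 8, and 12.7, 9.1, 139, 658.6, 75.7 and 322.5 in male olfactory 1, 2, 3, 4, 7 and 10. Respiratory values were 7017 to 40696 (median 25148) in females and 14801 to 31079 (median 19652) in males. Female 8 was high and female 6 low in both of their tissues, and the olfactory value of female 8 came close to the respiratory value of female 6. The difference was -3.80 (SE 1.02) in females and -7.48 (SE 0.72) in males, where 2 of 6 olfactory values were at or under background. The female value was -1.55 without female olfactory 6 and -6.05 without female olfactory 8. On some respiratory arrays Lpal2 lay near the highest signal, as Obp1f did, so its tissue differences may be understated.

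**Figure D1:**
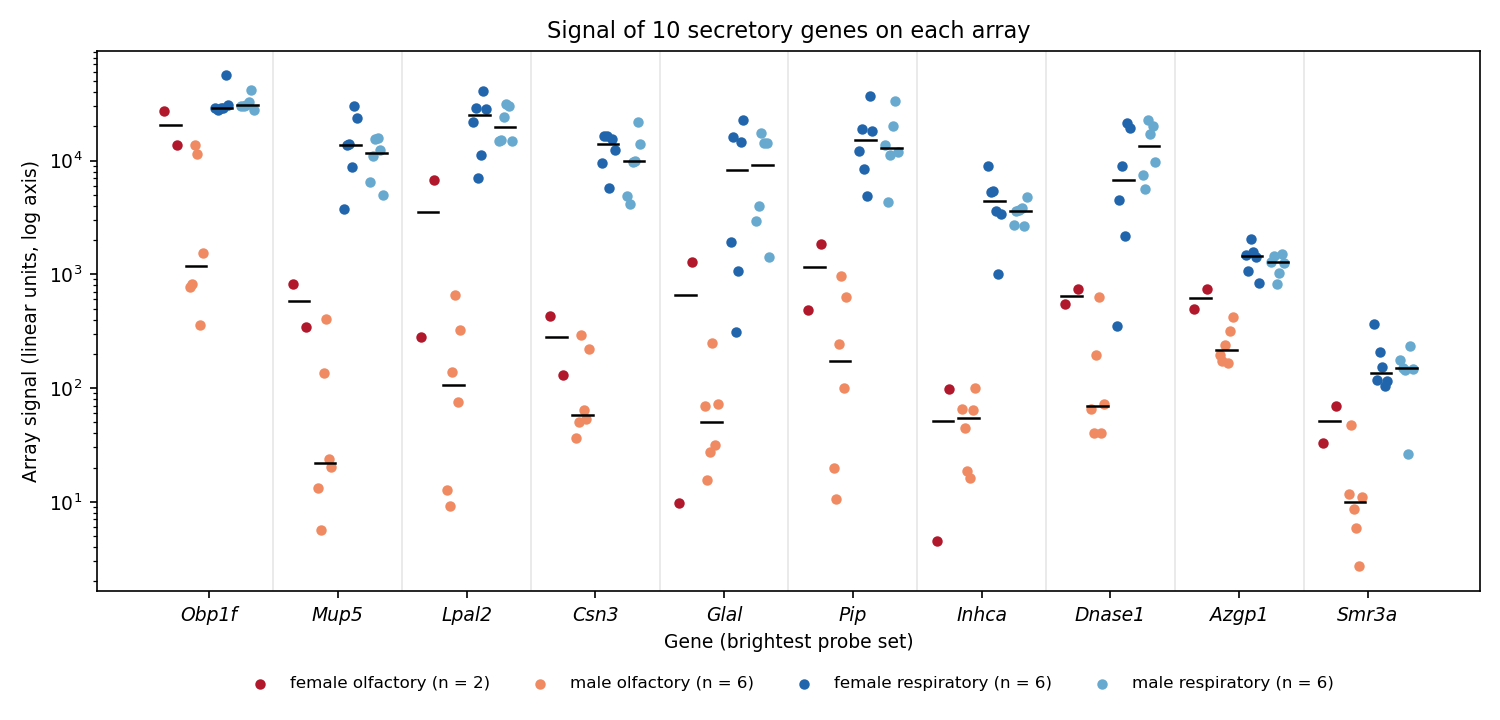
Signal of each gene's brightest probe set (linear array units on a log axis) on every array, with points for arrays and black lines for group medians, in female olfactory (n = 2), male olfactory (n = 6), female respiratory (n = 6) and male respiratory (n = 6) samples. Obp1f is spread from 355.8 to 13653 in male olfactory arrays while its respiratory points nearly coincide, and Glal and Dnase1 are spread widest in the respiratory arrays.

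The secretions shared with milk, saliva and tears were next. Csn3, the kappa-casein of milk, read 433.4 and 131.4 signal units in female olfactory 6 and 8, and 36.7 to 290.4 (median 58.4) in male olfactory arrays. It read 5679 to 16559 (median 14010.4) in female respiratory and 4145 to 21978 (median 9881) in male respiratory arrays. No array of an olfactory group came near those of the respiratory group, and the difference was -5.53 (SE 0.64) in females and -6.45 (SE 0.45) in males. Pip, the prolactin-induced protein of saliva and tears, read 486.0 and 1826 in female olfactory 6 and 8, and 10.5 to 959.4 (median 171.4) in male olfactory arrays. Its respiratory values were 4867 to 36884 (median 15056.6) in females and 4333 to 33668 (median 12849.8) in males. Pip differed by -3.82 (SE 1.02) in females and -6.36 (SE 0.72) in males, where 2 of 6 olfactory values were at or under background.

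Smr3a, of the androgen-regulated family of submaxillary gland genes, was dim throughout. It read 33.0 and 69.2 signal units in female olfactory 6 and 8 and 2.7 to 47.5 (median 9.9) in male olfactory arrays, where 5 of 6 values were at or under background. Respiratory values were 104.8 to 362.9 (median 135.6) in females and 26.2 to 233.7 (median 149.1) in males. Male respiratory 4, at 26.2, lay under background and under male olfactory 2, at 47.5, so the male groups overlapped. The difference was -1.45 (SE 0.56) in females and -2.36 (SE 0.40) in males.

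Glal had the widest spread. It read 9.8 and 1293 signal units in female olfactory 6 and 8, and 15.6 to 250.4 (median 50.7) in male olfactory arrays. In female respiratory 3, 4, 6, 7, 8 and 9 it read 1934, 16045, 308.4, 1076, 14582 and 22676. In male respiratory 1, 2, 3, 4, 7 and 8 it read 2921, 3942, 17596, 14322, 14304.5 and 1421. In either sex 3 respiratory arrays were high, at 14304.5 or more, and 3 low, at 3942 or less, and the olfactory value of female 8 exceeded the respiratory values of females 6 and 7. The difference was -4.42 (SE 1.39) in females and -6.46 (SE 0.98) in males, with 1 of 2 female and 3 of 6 male olfactory values at or under background. The female value was -1.59 without female olfactory 6 and -7.25 without female olfactory 8.

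Enzymes and binding proteins made up the rest. Dnase1, a secreted enzyme that cuts DNA, read 544.1 and 745.1 signal units in female olfactory 6 and 8, and 40.1 to 637.2 (median 68.9) in male olfactory arrays. In female respiratory 3, 4, 6, 7, 8 and 9 it read 349.3, 4478, 8899, 2172, 21237 and 19409, and in males 5597 to 22809 (median 13464). Female respiratory 3 was thus lower than both female olfactory arrays. The difference was -2.90 (SE 1.07) in females and -6.65 (SE 0.75) in males.

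Inhca, a transferrin-like inhibitor of carbonic anhydrase, read 4.5 and 97.3 signal units in female olfactory 6 and 8 through probe set 1398577_at, and 16.1 to 100.6 (median 54.5) in male olfactory arrays. Respiratory values were 996.7 to 8892 (median 4405) in females, lowest in female respiratory 8, and 2647 to 4825 (median 3624) in males. The difference was -6.31 (SE 0.62) in females and -5.84 (SE 0.44) in males. Its dimmer probe set 1381939_at gave -1.88 and -1.92, with 1 of 2 female and 3 of 6 male olfactory values at or under background. Azgp1, the zinc-alpha-2-glycoprotein of many body fluids, read 497.1 and 739.8 in female olfactory 6 and 8, and 167.1 to 419.3 (median 216) in male olfactory arrays. Its respiratory values were 832.6 to 2056 (median 1453) in females and 815 to 1519 (median 1274) in males, a difference of -1.13 (SE 0.34) in females and -2.26 (SE 0.24) in males.

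Over the 10 genes the median difference was -3.81 in females and -6.40 in males on the log2 scale, against -0.112 and -0.041 over all probe sets. Every olfactory array lay below every respiratory one for 11 of the 13 probe sets in females (16.5% of all probe sets) and for 12 of 13 in males (7.19%). The limma fit called 17.9% of all probe sets between the tissues of females and 25.2% between those of males, at adjusted p under 0.05. Since this contrast chose the genes, these counts describe the choice and no test of it is given. In tissue samples fewer gland cells and less RNA per cell cannot be told apart.

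RNA integrity moved with tissue. With it as a covariate on the 17 arrays that have a number, the median over the 10 genes was -3.44 in females and -5.62 in males, against -3.81 and -6.40 on the same arrays without it. Obp1f in females then turned to 0.53 (SE 1.10). In no other member did the sign of the tissue difference turn in either sex under this covariate.

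Within rats that gave both tissues, all 13 probe sets were lower in the olfactory sample of all 7 rats. This contrast chose the genes, so the count describes the choice, and no share over all probe sets was taken. For Smr3a in male 4 both values, 5.9 and 26.2, were at or under background. The gap ranged widely for Obp1f, whose olfactory signal was 94.7% and 24.2% of the respiratory one in females 6 and 8, and 2.54%, 2.71%, 44.8%, 34.8% and 0.85% of it in males 1, 2, 3, 4 and 7. Its respiratory signal lay close to the highest of each array, so these shares may be too high. The 94.7% of female 6 cannot show that her tissues are alike. Mup5 stood at 5.93% and 1.14% in females 6 and 8, and at 0.88% and 2.55% in males 3 and 4. In males 1, 2 and 7 its olfactory signal was at or under background, so no share is given. For Azgp1 the same share ran from 11.9% in male 2 to 51.7% in female 8.

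**Figure D2:**
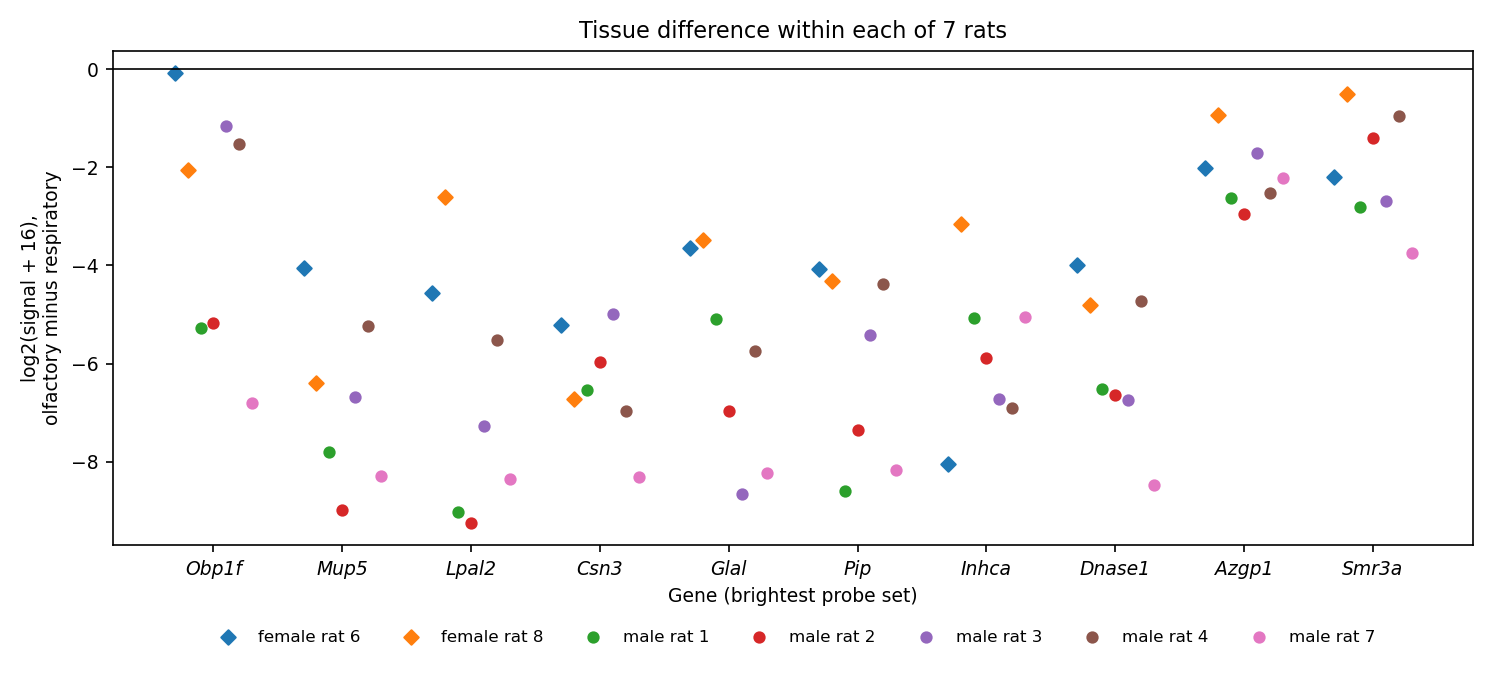
Difference of log2(signal + 16), olfactory minus respiratory, in each of the 7 rats with both tissues (diamonds, females; circles, males), by gene. All points lie below 0; Obp1f runs from -6.81 in male 7 to -0.08 in female 6, and all points of Azgp1 lie between -2.96 and -0.94.

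Olfactory samples differed among themselves for several members at the same time. Male olfactory 4 had the highest male olfactory signal of Dnase1, Glal, Lpal2, Mup5 and Pip. Male olfactory 3 and 4 both lay above the other 4 males for Obp1f, Mup5 and Dnase1. Gland markers differed from each other on these arrays. Kcne1, a potassium channel subunit, read 149.2 and 119.6 signal units in male olfactory 3 and 4, against 7.1 to 34.4 in the other 6 olfactory arrays. Bhlha15, a transcription factor of secretory cells, read 53.2 and 41.2 there, and 68.8, 50.7 and 51.4 in male olfactory 1, 2 and 7. It read 156.6 in male olfactory 10, and 113.2 and 167.0 in female olfactory 6 and 8. The summed signal of 13 gland markers was 51591 and 52796 in male olfactory 3 and 4, below the 55190.0 and 69550.4 of male olfactory 7 and 10. Bpifa1 alone gave 23637 and 27270 of the sums in male olfactory 3 and 4, and 22462 and 29711 in male olfactory 7 and 10. The part of gland content in the members' signals was not tested. Both female olfactory arrays exceeded the male olfactory median for 8 of the 10 genes, all but Glal and Inhca.

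Between the sexes no member passed the test in olfactory epithelium. In the limma fit 0 of 13 member probe sets had an adjusted p under 0.05, against 0.0419% of all probe sets, while 9 of 13 had an unadjusted p under it, against 1583 of all 31042. The genes were chosen for low signal in these olfactory arrays, 6 of 8 of them male, and such a choice can by itself put females above males, so the values here are a description. The difference, female minus male, had a median of 1.90 over the 10 genes, against -0.045 over all probe sets, and rested on 2 female arrays. Lpal2 had 3.62 (95% interval 1.52 to 5.72, limma adjusted p = 0.544), but 5.87 without female olfactory 6 and 1.36 without female olfactory 8. It was followed by Obp1f at 3.29 (1.48 to 5.10, adjusted p = 0.46) and Mup5 at 3.14 (1.42 to 4.87, adjusted p = 0.45). Azgp1 was the only member whose sexes did not overlap, with 497.1 and 739.8 signal units in females, against 167.1 to 419.3 in males, and a difference of 1.30 (0.60 to 2.00, adjusted p = 0.427); 5.85% of all probe sets did not overlap, and 2.28% had both females above all males. Without male olfactory 4, Mup5 passed through 1370778_at (difference 3.85, adjusted p = 0.0263) and through 1370779_x_at (3.69, adjusted p = 0.0332).

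The size of the tissue difference was also set against sex. In the limma fit 0 of 13 member probe sets differed between females and males at an adjusted p under 0.05, against 0% of all probe sets, and 6 of 13 had an unadjusted p under it, as had 1516 of all 31042 probe sets. Adjusted p-values of the members ran from 0.924 to 0.995. This contrast too is made of the tissue differences that chose the genes, and is given as a description. The difference of differences was 3.75 for Dnase1 (95% interval 1.05 to 6.45) and 3.68 for Lpal2 (1.11 to 6.26), and that of Lpal2 was 5.93 without female olfactory 6 and 1.43 without female olfactory 8. For Inhca the value was -0.48 (-2.04 to 1.09).

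In respiratory epithelium no sex difference of a member was called. No member probe set passed, 0 of 13 by limma against 0.0258% of all probe sets, and none had an unadjusted p under 0.05. The sexes overlapped for all 13, where 0.277% of all probe sets did not overlap and 0.116% had all females above all males. The differences, female minus male, ran from -1.32 for Dnase1 to 0.37 for Csn3, with a median of 0.09 over the 10 genes. Dnase1 had the widest gap, with 2172 to 21237 signal units in 5 female respiratory arrays and 349.3 in the other, against 5597 to 22809 in males (95% interval of the difference -2.88 to 0.24, limma adjusted p = 1.0, exact permutation p = 0.208 over 924 assignments). The intervals use a spread pooled over all 4 groups, olfactory arrays included. For Obp1f the difference was 0.02, and between -0.135 and 0.1 when any 1 array was left out (exact permutation p = 0.933). Its signal lay close to the highest of each respiratory array, so these values cannot show that the sexes are alike.

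Age gave no call either. Over the 12 respiratory arrays, with sex in the model, 0 of 13 member probe sets had an adjusted limma p under 0.05, against 0% of all probe sets, and 3 of 13 had an unadjusted p under it, against 1962 of all 31042. Among these 3, Dnase1 had a slope of 0.80 per week (95% interval 0.23 to 1.37, limma adjusted p = 0.714). Csn3 had 0.40 (0.13 to 0.67) and Pip 0.40 (0.02 to 0.79), each with limma adjusted p = 0.714. When any 1 array was left out, the slopes ran from 0.388 to 1.035, 0.317 to 0.491 and 0.291 to 0.525. Female respiratory 8 and male respiratory 7, both of 14 weeks, are part of these fits.

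**Figure D3:**
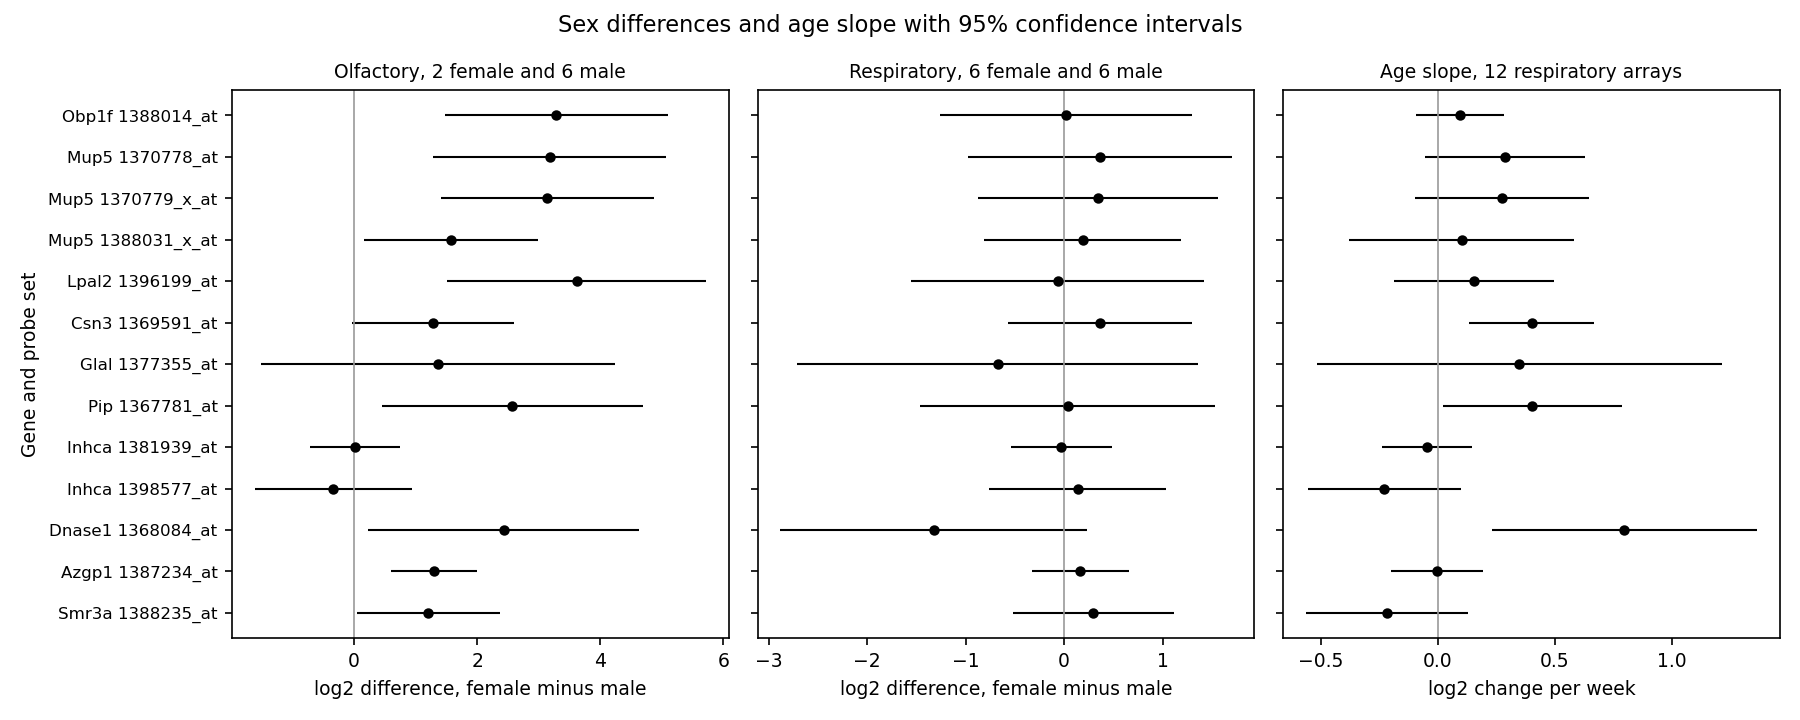
Estimates with 95% confidence intervals (bars) for the 13 member probe sets, as log2 differences female minus male in olfactory epithelium (left) and respiratory epithelium (middle) and as log2 change per week of age in respiratory epithelium (right). Most olfactory estimates lie to the right of 0 with wide intervals, with Lpal2 at 3.62, and all respiratory intervals between the sexes include 0.

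Spread between rats within the respiratory epithelium set the members apart from each other. After removal of the sex means, the SD of log2 signal was 2.07 for Glal and 1.67 for Dnase1, larger than in 99.96% and 99.81% of the 13372 probe sets of mean log2 signal of at least 8, whose median SD was 0.385. Pip at 1.0, Mup5 at 0.90, Inhca at 0.79, Csn3 at 0.77 and Lpal2 at 0.77 followed. Lpal2 too lay near the top of some arrays, so its SD may be understated. In female respiratory 4 it read 29075, above Obp1f at 27959, on an array whose highest signal was 33602. Azgp1 at 0.40 lay near the median. Obp1f had 0.31, but its signal was close to the highest of each array and stood out only on the 2 arrays whose highest signal did, so this value is no measure of its spread between rats. Csn3 and Glal, with SDs of 0.77 and 2.07 among rats, had nearly the same tissue difference in males, -6.45 and -6.46.

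**Figure D4:**
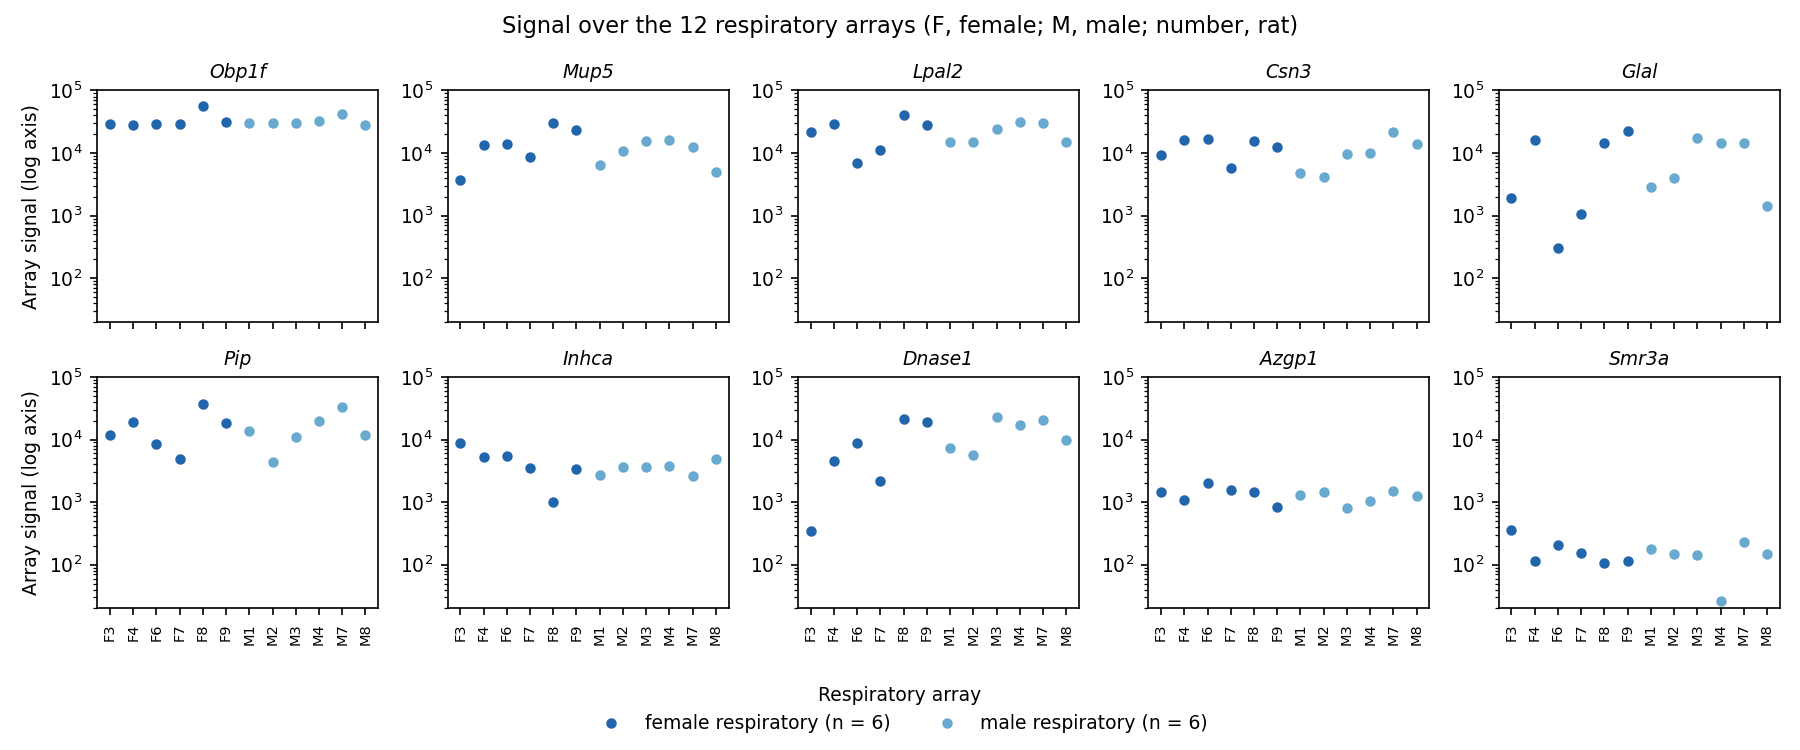
Signal (log axis) of the 10 genes on the 12 respiratory arrays, each point 1 array, with females (F) left of males (M) and rat numbers below. Obp1f is level but for F8 and M7, and Lpal2 and Glal are low together in F6 and F7 and high together in F4, F8, F9, M3, M4 and M7.

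The members' co-variation over the 12 respiratory arrays is given as Pearson r of log2 signal, a description only, since arrays share dissection, RNA quality and scaling. Over the 45 pairs of genes r had a median of 0.234 and ran from -0.843 to 0.914, with 10 pairs above 0.5 and 18 below 0. Without female respiratory 8 and male respiratory 7 the median was 0.146. After quantile normalization, which gives all arrays the same distribution, the median was 0.033. The genes thus did not form a single block. Lpal2 and Glal were the closest pair, with r = 0.914 (Spearman 0.769), 0.919 without female respiratory 8 and male respiratory 7, and between 0.857 and 0.949 when any 1 array was left out. After quantile normalization their r was 0.884. Lpal2 and Pip followed with r = 0.772, and Mup5 and Dnase1 with 0.721.

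The 7 genes Obp1f, Mup5, Lpal2, Csn3, Glal, Pip and Dnase1 correlated above 0 with each other in all 21 pairs, with a median r of 0.456. Inhca, Azgp1 and Smr3a correlated with these 7 above 0 in 3 of 21 pairs, with a median of -0.416. This division was made after the values were seen. Without female respiratory 8 and male respiratory 7 the counts were 20 of 21 and 2 of 21. After quantile normalization they were 16 of 21 and 5 of 21, with medians of 0.18 and -0.356. All pairs of the 7 then below 0 were pairs of Obp1f, with Mup5 (-0.143), Lpal2 (-0.072), Glal (-0.34), Pip (-0.237) and Dnase1 (-0.499). Obp1f then ran above 0 with Csn3 (0.033), Inhca (0.823), Azgp1 (0.041) and Smr3a (0.113). The place of Obp1f among the 7 thus depends on the scaling.

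Single pairs behaved differently under these settings. Glal and Azgp1 ran against each other with r = -0.751, which was -0.934 without female respiratory 8 and male respiratory 7 and -0.775 after quantile normalization. Obp1f and Inhca had r = -0.843, but -0.476 without those arrays and 0.823 after quantile normalization, so its sign depends on the scaling. Csn3 and Smr3a, neighbours on chromosome 14, had r = 0.003. The 2 probe sets of Inhca reached only 0.305 with each other, and 0.677 without female respiratory 8 and male respiratory 7.

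**Figure D5:**
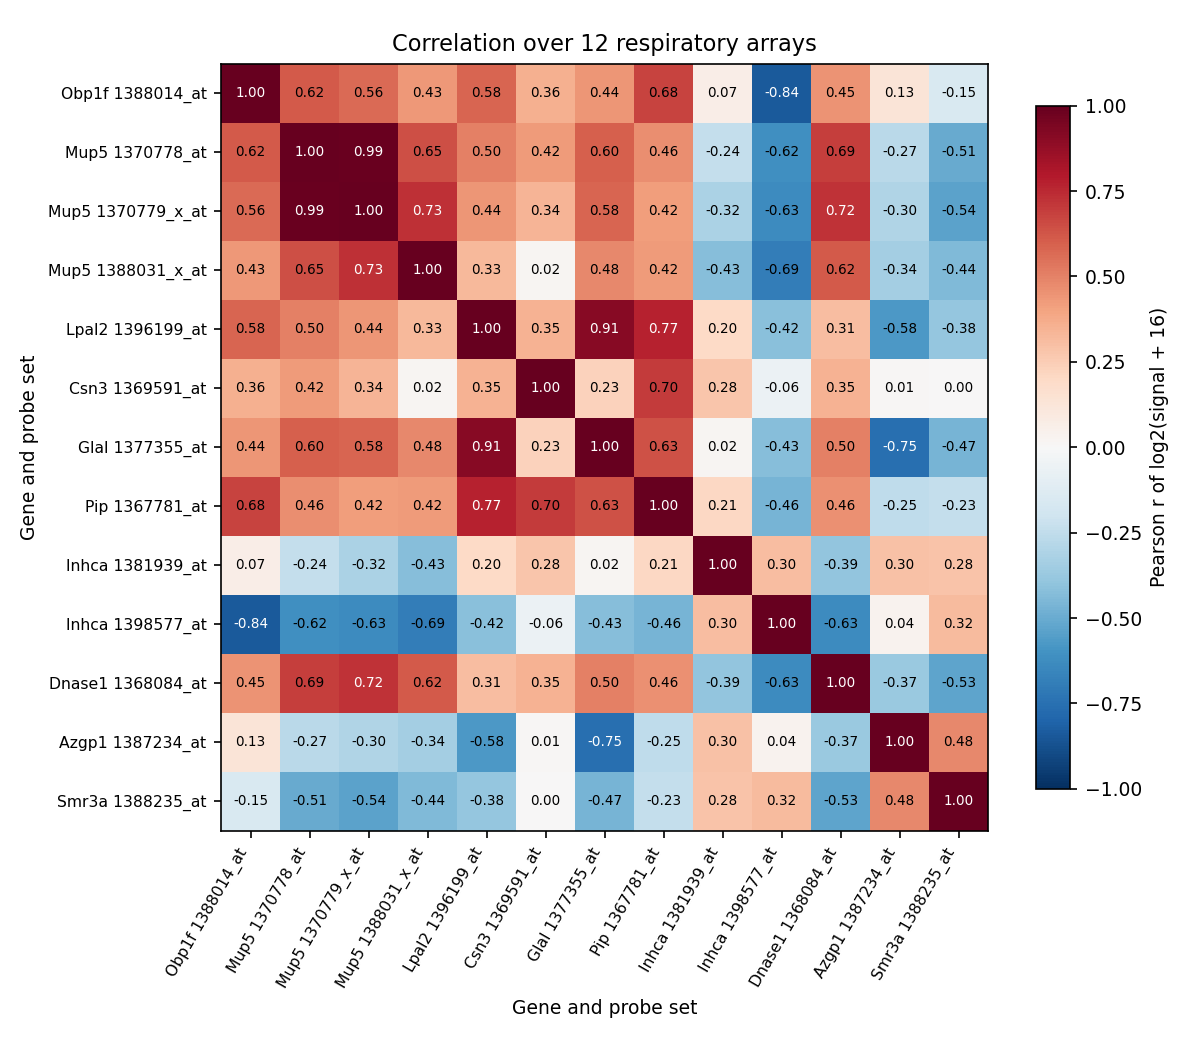
Pearson r of log2(signal + 16) over the 12 respiratory arrays between the 13 member probe sets, from -1 (blue) to 1 (red). Lpal2 and Glal (0.91) and 1370778_at and 1370779_x_at of Mup5 (0.99) are the closest pairs, and Inhca 1398577_at, Azgp1 and Smr3a are mostly blue against the other genes.

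Markers of gland, goblet and nerve cells were set beside these signals. Of the gland markers only Kcne1 and Bhlha15 were correlated with the members, and these did not move alike. Kcne1 had r = 0.802 with Lpal2, 0.806 with Glal, 0.654 with Pip and -0.71 with Azgp1. Bhlha15 had -0.278, -0.19, -0.191 and 0.069 with the same genes. Muc5ac, a mucin of goblet cells, ran against Lpal2 (-0.691), Glal (-0.688) and Dnase1 (-0.644) and with Smr3a (0.59). It was the only goblet cell marker correlated with the members, and need not stand for these cells. Of 6 goblet cell markers measured, 3 were called lower in male olfactory epithelium (Muc5ac at -5.74) and 1 higher (Muc2 at 2.41). Omp, the only neuron marker correlated with the members, ran against Dnase1 (-0.588) and Glal (-0.55) and with Azgp1 (0.551) and Smr3a (0.548). The summed signal of 6 olfactory neuron markers was 3640 to 24247 in female and 2590 to 12116 in male respiratory arrays, with none of the 6 at or under background in all arrays of a group. The part of dissection in the members' co-variation was not tested.

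Genes outside the list with the most similar respiratory profile were sought among 8831 genes. For Glal they were Ghitm (r = 0.942), Ripk3 (0.915) and Sod2 (0.915), and for Lpal2 C3h15orf48 (0.899), RT1-Da (0.858) and Sod2 (0.849). For Obp1f they were Bpifa1 (0.989), Rpl7 (0.989) and Rpl27a (0.987), whose r was 0.812, 0.787 and 0.751 without female respiratory 8 and male respiratory 7. Bpifa1, a secreted protein of airway glands, did not pass between tissues in males (difference -0.18, limma adjusted p = 0.54). It reached 61.5% to 69.1% of the highest signal on male olfactory arrays and 63.2% to 71.5% on male respiratory arrays. Equal expression can therefore not be read from this. For Mup5 the closest were Thoc6 (0.9), Calu (0.865) and Bola3 (0.845), and for Csn3 Upp1 (0.886), Haus7 (0.874) and Rab1b (0.812). For Pip they were Hcst (0.858), Fkbp2 (0.854) and Pot1 (0.85), and for Dnase1 Rfx8 (0.851), Nckap5l (0.839) and Marveld1 (0.839). Inhca went with Rasd1 (0.956), Kank1 (0.949) and Mbtps1 (0.947), Azgp1 with Zbtb4 (0.795), Klhdc1 (0.781) and Zfp870 (0.775), and Smr3a with Kiaa0930 (0.857), Fam53c (0.845) and Rab11fip5 (0.835). No gene stood among the 20 closest of 5 or more members, and only Sod2 did so for 3 (Glal, Lpal2 and Mup5).

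Related genes that the choice left out were compared between the tissues of males, where 14% of all named genes were called higher and 17.8% lower in olfactory epithelium. Of 13 other lipocalins and small carriers measured, 3 rose and 3 fell. Several that were not called were dim: Orm1 and Ambp were at or under background on 15 of 20 arrays, Lcn1 on 11 and Vegp2 on 10. Obp3, an odorant-binding lipocalin 6 protein-coding genes from Mup5, read 196.2 to 6843 signal units (median 1100) in male olfactory arrays, against 27195 to 39168 (median 29235) in male respiratory arrays, a difference of -4.92 (limma adjusted p = 5.2e-06). Obp2b (-3.17, adjusted p = 0.019) and Lcn2 (-2.58, adjusted p = 7.46e-05), both lipocalins, also fell, while the carriers Crabp1 (2.67), Ptgds (2.52) and Apod (1.31) rose. Obp2b read 235.3 to 38421 in male olfactory and 32594.5 to 46013 in male respiratory arrays, so these overlapped, and it lost its call without male olfactory 1 or 4.

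Of 24 other gland secretions measured, 12 fell and 2 rose, with Lcn2 counted here as well as among the carriers. Among those not called, Bpifb2, Sftpb and Bpifa2 were at or under background on 17, 15 and 13 of 20 arrays. Slpi, an inhibitor of proteases in mucus, fell by 4.66 (limma adjusted p = 6.92e-05), and Chia, an acidic chitinase, fell by 2.55 (adjusted p = 3.78e-05). Bpifb4 (2.87) and Bpifb6 (2.29), of the same protein family as Bpifa1, rose. Of 13 markers of seromucous gland acini and ducts 6 fell and none rose, with Kcne1 at -6.77, Dmbt1 at -4.51 and Pigr, which carries antibodies across the epithelium, at -3.93. Among the 7 that did not pass were Muc5b, a gel-forming mucin (0.54, limma adjusted p = 0.224), and Sox10, a transcription factor of gland cells (0.08, adjusted p = 0.923). Of the markers of basal cells 3 of 4 fell (Krt15 by 4.24), of squamous cells 3 of 4 (Krt13 by 3.76), and of plasma cells 3 of 3 (Jchain by 2.55), while 6 of 6 markers of olfactory neurons rose. With RNA integrity as a covariate 18 of 34 genes named by the rule from these lists lost their call, against 5 on the same arrays without the covariate. Obp2b was lost in both fits, and with the covariate alone those lost included Lcn2, Slpi, Chia, Dmbt1, Ptgds, Apod, Bpifb4, Bpifb6 and Krt13.

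In females the same lists were counted, where 10.9% of named genes were higher and 11.6% lower. Among the other carriers 2 rose and none fell, among the other secretions 1 rose and 7 fell, and among the gland markers none rose and 6 fell. Obp3 differed by -2.02 (limma adjusted p = 0.14) in females. Whether the lists differ between the sexes was tested gene by gene, and 0 of their genes passed for the difference of tissue differences, for the sexes in either tissue or for age.

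Of 133 measured genes within 15 protein-coding genes of a member, 19 were lower and 17 higher in male olfactory epithelium, where 17.8% of all named genes were lower and 14% higher. Besides Obp3 near Mup5, the gene next to Obp1f on chromosome X, Pbsn, a lipocalin of the rat prostate, differed by -4.76 (limma adjusted p = 0.000227), with 3.8 to 656.8 signal units in male olfactory and 259.3 to 2599 in male respiratory arrays. Sval2, next to Pip, differed by -2.56 (adjusted p = 0.0401). None of the 10 measured neighbours of Glal passed. Within 8 genes of Csn3, the caseins Csn2 (-0.51, adjusted p = 0.334) and Csn1s1 (0.00, adjusted p = 0.999) did not pass. Csn2 was at or under background on 12 of 20 arrays.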

How the data were processed

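Microarray intensity was taken as the authors deposited it: a linear signal per probe set on rat genome arrays, made with GCOS 1.0 per the submitters' processing notes. Neither its algorithm nor a scaling target is given in the sources used here. The mean of each array after trimming 2% at each end was 500.1 to 500.3, so the deposited scaling was kept. Controls (57) were dropped from 31099 probe sets; of the 31042 kept, 20826 carry 1 gene symbol, 436 several and 9780 none here.

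The analysis used log2(signal + 16). Means of the 4 groups were estimated from all 20 arrays by limma (version 3.58.1, R 4.3.3) with an intensity trend in the variance, and an age slope beside sex from the 12 respiratory arrays. Two-sided p-values received the Benjamini-Hochberg correction across all 31042 probe sets, and calls lie under 0.05. Samples of a group are separate rats by their labels. Differences of dim probe sets are understated by the added 16. An array's background limit is percentile 95 of its 27 probe sets for bacterial controls. The fits of the respiratory sex difference and of the age slope were tried on simulated data with independent noise. The tissue and olfactory contrasts were not tried in this way.

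The members and lists, and the tests on them, were chosen with earlier results of these data known. Genes outside the members are named by rule: the 3 with the highest r per member, any among the 20 closest of 5 members, and up to 3 per list and direction with the largest called difference in males. Muc5b, Sox10, Bpifa1, the neighbours and examples beyond 3 per direction were chosen after their values were seen. Arrays with the same sex and number in the labels are of 1 rat. Deviations from group means of the 2 arrays of a rat correlated by -0.184 to 0.246, above 0 in 4 of 7 rats, and were highest for the rat's own array in 2 of 7, so the pairing rests on the labels and the model without an animal term was kept. Alternatives were other added constants, a filter on dim probe sets, quantile normalization, covariates for RNA integrity and age, the animal as a block, and leaving out arrays. Promoters are from RefSeq (GRCr8). Protein sequences were not used here.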

Additional observations from a re-analysis of the deposited data

Results flagged for a closer look

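In 39 groups of 6 arrays (13 probe sets, 3 groups) 4 single arrays stood farther from the others than Dixon's 95% value allows on the log2 scale. Chance alone does so for about 1 group in 20. Obp1f read 56094.6 in female respiratory 8, against 27959 to 30814 in the other females. Inhca 1381939_at read 305.2 in male respiratory 7, against 211.6 to 238.3 in the other males. Smr3a read 47.5 in male olfactory 2, against 2.7 to 11.6 in the other males, and 26.2 in male respiratory 4, against 143.5 to 233.7. Female respiratory 8 and male respiratory 7 are the arrays that stand apart in their overall distribution.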

How the results depend on the processing

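All member probe sets stayed lower in olfactory epithelium in both sexes under every alternative run, apart from Obp1f in females, which turned to 0.533 with the RNA integrity covariate. The counts of all probe sets called moved more: with that covariate 2347 were called between tissues in males and 1133 in females. On the same arrays without the covariate 7203 were called in males and 6235 in females. The female count was 8484 without female respiratory 8 and male respiratory 7. Leaving out 1 array gave 6807 to 8821 calls in males and 1977 to 7361 in females, and a member median of -4.329 to -2.131 in females, the highest without female olfactory 6. The cause of these changes was not tested. The fits on the arrays with an integrity number but no covariate, and the correlations without female respiratory 8 and male respiratory 7, were chosen after seeing the data.

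With the animal as a fixed block (pairing the 2 tissues of a rat) 714 probe sets were called in females and 7493 in males, and with it as a random block 5663 and 8034. The members' medians were -3.89 and -6.59 in the fixed block.

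Between the sexes, the difference of tissue differences had 4 calls with an added constant of 1, 1 with 64 and 1 after quantile normalization, and 0 to 2 when 1 array was left out. In olfactory epithelium 29 were called with an added constant of 1, 22 after quantile normalization, 26 without female respiratory 8 and male respiratory 7, 27 on the arrays with an integrity number, and 8 to 26 without 1 array. Of the members 1 was called there on the arrays with an integrity number (Mup5 1370778_at), and 0 to 2 without 1 array, the 2 being without male olfactory 4.

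Estimates near 0 changed sign, none of them called. Without female respiratory 8 and male respiratory 7 they were -0.037 for Inhca 1381939_at in the difference of tissue differences, and between respiratory sexes -0.057 for Obp1f, -0.168 for Mup5 1388031_x_at and 0.048 for Inhca 1381939_at. There the integrity covariate gave 0.051 for Lpal2 and 0.142 for Inhca 1381939_at, the arrays with that number gave 0.019 and -0.049 for Inhca 1381939_at and 1398577_at, and the age covariate gave -0.367 for Pip. In olfactory epithelium Inhca 1381939_at was -0.008 with 64 added. The age slope was -0.039 for Obp1f and 0.005 for Azgp1 after quantile normalization, and -0.007 for Obp1f without female respiratory 8 and male respiratory 7. The cause was not tested.

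Leaving out 1 array, ranges that crossed 0 were, for the difference of tissue differences, -0.794 to 4.871 (Glal), -0.124 to 0.212 (Inhca 1381939_at) and -1.709 to 0.757 (Inhca 1398577_at). In olfactory epithelium they were -1.467 to 4.198, -0.15 to 0.185 and -1.573 to 0.894 for the same. In respiratory epithelium they were -0.135 to 0.1 (Obp1f), -0.093 to 0.582 (Mup5 1388031_x_at), -0.274 to 0.233 (Lpal2), -1.179 to 0.046 (Glal), -0.284 to 0.333 (Pip), -0.119 to 0.097 (Inhca 1381939_at), -0.107 to 0.52 (Inhca 1398577_at) and -0.059 to 0.454 (Smr3a). For age they were -0.233 to 0.326 (Mup5 1388031_x_at), -0.107 to 0.014 (Inhca 1381939_at) and -0.062 to 0.047 (Azgp1). Signals at or under background limit Mup5, Smr3a, Glal, Inhca, Lpal2 and Pip in olfactory arrays.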
